A study of Drosophila melanogaster with 10 samples.

Results

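The cyclic nucleotide phosphodiesterases and the subunits of protein kinase A (PKA) were examined in the Malpighian tubule, the renal organ of the fly, and in the whole fly. Cyclic AMP (cAMP) and cyclic GMP (cGMP) are second messengers made by cyclases and broken down by phosphodiesterases, so that a cell's phosphodiesterases set how high and for how long each signal stands. PKA is held inactive as a complex of catalytic and regulatory subunits, and cAMP releases the catalytic subunits by binding the regulatory ones. In the tubule, cAMP and cGMP both stimulate the secretion of urine, and peptide hormones act through them.

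Total RNA came from dissected tubules and from whole flies of the Oregon R strain, 7 days adult and of mixed sexes in both groups, with no treatment named. Each of the 5 tubule arrays was matched to a whole fly array of the same culture, and the pairs carry the numbers 2 to 6. Tubules of many animals were pooled for an array, and a whole fly also contains its own tubules, so that a ratio between the groups understates any difference between tubule and the rest of the body. The values are signals of the Affymetrix Drosophila genome array, in arbitrary units on a linear scale.

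Members were the probe sets whose only gene in the platform annotation, by symbol or synonym, was 1 of 10 listed genes: dnc, Pde1c, Pde6, Pde8, Pde11, Pka-C1, Pka-C2, Pka-C3, Pka-R1 and Pka-R2. Of these 10 genes 7 had such a probe set and 3 had none. The 7 genes gave 18 probe sets, 14 for phosphodiesterases and 4 for PKA, of 13966 probe sets tested. Several members are long genes that were annotated piecemeal: the RefSeq table lists 6 computed gene numbers among the names of dnc, 8 for Pde1c and 3 for Pde11. The probe sets of such a gene need not read the same transcripts, and all of them are described.

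The dissected samples were read against marker genes of tubule and of other tissues. All 6 tubule markers measured were higher in tubule, with sums of 15570 to 17761 in the tubule arrays against 1980 to 2811 in the fly arrays. Of the 44 markers measured for neurons, photoreceptors, muscle, testis, ovary and egg, midgut and fat body, 37 were lower in tubule and 1 was higher. With 1 probe set per gene, 40.3 percent of all genes were lower and 16.5 percent higher. The summed signal of the 7 midgut markers measured was uneven among the tubule arrays, at 12167, 15213, 539, 10135 and 2275 in arrays 2 to 6, against 25753 to 34481 in the fly arrays. Pairs 4 and 6, whose tubule arrays were the lowest for midgut, were therefore also fitted alone. Their values are given for the member probe sets that lost a call in that fit. It rests on 2 pairs and called 5151 probe sets over the whole array, against 7418 in the fit of all pairs. A call lost in it may reflect only the smaller number of arrays, and the part of midgut tissue was not tested.

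Across the 18 probe sets, 8 were called higher in tubule, 1 lower and 9 neither, by limma with the pair as a block at a Benjamini-Hochberg adjusted p under 0.05 over all probe sets. Over the whole array 16.8 percent of probe sets were called higher and 36.3 percent lower. The 8 that were called higher came from dnc, Pde6, Pde8, Pde11 and Pka-C3, and the 1 called lower from Pde1c. The median log2 fold change (tubule over whole fly) was 0.61 over the members and -0.32 over all probe sets. In 6 of the 18 the 5 tubule signals all lay above the 5 fly signals, against 14.1 percent of all probe sets, and in 1 they all lay below, against 29.6 percent. Of the 14 phosphodiesterase probe sets 7 were called higher, and of the 4 PKA probe sets 1 was. Of the 18, 7 were called higher with a difference of at least 2-fold, against 9.8 percent of all probe sets. Of the 5 member probe sets with a mean of at least 50 over the 10 arrays, 4 were called higher, against 29.5 percent of all probe sets of that brightness. The mean was under 50 in both tissues in 12 of the 18, and 5 of the 9 calls fell among these dim ones. In pairs 4 and 6 alone, 4 member probe sets were called higher, those of dnc (143128_at), Pde8 (both) and Pde11 (146438_at), and none lower.

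**Figure D1:**
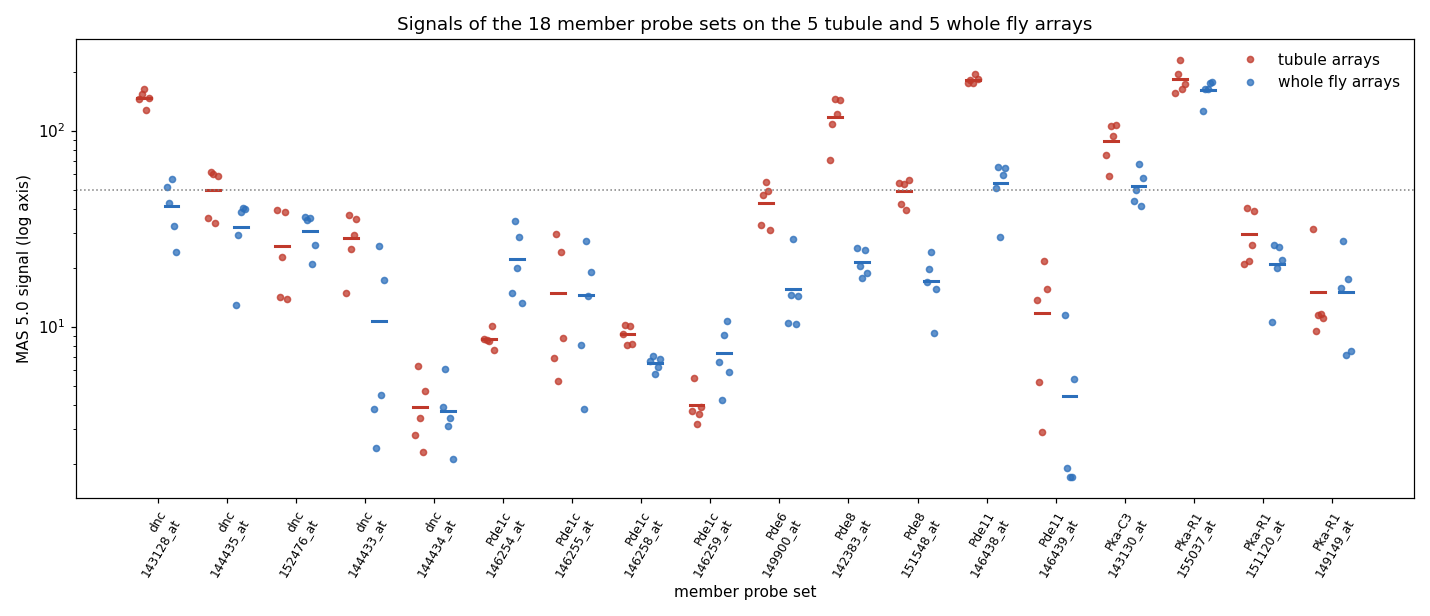
Signals of the 18 member probe sets (log axis, arbitrary units) on each of the 5 tubule arrays (red, left) and 5 whole fly arrays (blue, right), with the mean of each group as a bar and a signal of 50 as a dotted line. The 2 groups do not overlap in 1 probe set of dnc, 1 of Pde6, both of Pde8, 1 of Pde11 and 2 of Pde1c.

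The gene dunce (dnc) encodes a cAMP-specific phosphodiesterase and is best known from learning mutants of the fly. It has 5 probe sets. The one with the highest mean, 143128_at, gave signals of 144.3, 153, 162.3, 127.5 and 147.6 in tubule arrays 2 to 6, against 51.3, 42.7, 56.4, 32.6 and 24 in fly arrays 2 to 6. Every tubule array was more than 2-fold above its matched fly array, and the lowest tubule signal was above the highest fly signal. The mean signal was 147 ± 12.8 in tubule and 41.4 ± 13.3 in whole fly (SD, n = 5 each). Enrichment, the mean of the 5 ratios within pairs, was 3.87 ± 1.36 (SD, n = 5 pairs), with a log2 fold change of 1.89 (SE 0.19, limma adjusted p = 9.4e-05). In these bulk samples, a difference in the share of cells of a type and one in RNA of the gene per cell cannot be told apart. With pairs 4 and 6 alone the log2 fold change was 2.07.

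Of the other 4 probe sets of dnc, 1 was called higher and 3 were not called. The one called higher, 144433_at, was at 14.8, 37, 24.9, 29.4 and 35.3 in tubule arrays 2 to 6 against 3.8, 2.4, 25.7, 4.5 and 17.3 in fly arrays 2 to 6. Its groups overlapped, and 4 of 5 pairs were higher in tubule. Its log2 fold change of 1.92 (SE 0.56, limma adjusted p = 0.0196) lost the call without pair 3, where it was 1.41 (adjusted p = 0.0572), and without pair 5, where it was 1.72 (adjusted p = 0.0625). In pairs 4 and 6 alone it was 0.49 (adjusted p = 0.499). The probe set 144435_at gave 35.7, 61.8, 59.8, 33.9 and 59 in tubule arrays 2 to 6 and 12.9, 29.2, 38.5, 40.5 and 39.6 in fly arrays 2 to 6, with 4 of 5 pairs higher in tubule. It missed the threshold (log2 fold change 0.70, adjusted p = 0.0597), and of the fits that left out a pair only that without pair 5, the 1 pair with a lower tubule signal, passed it (0.94, adjusted p = 0.0201). Quantile normalization also gave a call (1.39, adjusted p = 0.0036). The probe set 152476_at lay between 13.9 and 39.5 in tubule and between 20.8 and 36.4 in whole fly (log2 fold change -0.38, adjusted p = 0.399), and 144434_at lay under 7 on every array.

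Whether 2 probe sets of a gene differed in their tubule to fly ratio was tested on the ratio of their signals within each array. It was a two-sided exact permutation test over the 10 arrays that did not use the pairing. It was chosen after the values were seen and adjusted over 11 comparisons. For dnc, the tubule to fly difference of 143128_at exceeded that of 144435_at by 1.19 ± 0.93 on the log2 scale (SD over 5 pairs), which did not pass adjustment (exact p = 0.0397, adjusted p = 0.109). It exceeded that of 152476_at by 2.27 ± 1.07 and that of 144434_at by 1.83 ± 0.46 (exact p = 0.00794 and adjusted p = 0.0291 for each). Against 144433_at it was -0.03 ± 1.60 (adjusted p = 0.944). Those 3 probe sets were under 50 on every array, where a signal need not follow its transcript, and no difference between transcripts is read from them. Of the 11 comparisons 3 passed, each with a probe set under 50 on every array.

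Pde8, whose mammalian relatives are cAMP-specific with high affinity, had the member probe set of largest log2 fold change. That probe set, 142383_at, gave 71.2, 108.6, 145, 121.8 and 143.8 in tubule arrays 2 to 6, against 25.1, 20.4, 17.8, 24.7 and 18.7 in fly arrays 2 to 6. The tubule signals were spread over a 2-fold range, all of it above the fly signals. The mean was 118 ± 30.4 in tubule and 21.3 ± 3.38 in whole fly (SD, n = 5 each), and enrichment was 5.79 ± 2.17. The log2 fold change was 2.44 (SE 0.25, limma adjusted p = 9.1e-05), higher than that of 97.4 percent of all probe sets. The ratio was lowest in pair 2, at 2.84, and highest in pair 4, at 8.15.

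The other probe set of Pde8 was also higher in all 5 pairs. It gave 54.1, 42, 53.5, 39.3 and 56.3 in tubule arrays 2 to 6 against 16.8, 19.6, 23.9, 9.3 and 15.5 in fly arrays 2 to 6. The groups did not overlap, and enrichment was 3.09 ± 0.898, with a log2 fold change of 1.58 (SE 0.25, limma adjusted p = 9.6e-04). The 2 probe sets differed in their tubule to fly ratio by 0.86 ± 0.83 on the log2 scale, which did not pass adjustment (exact p = 0.0635, adjusted p = 0.140).

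Pde11, a phosphodiesterase described in the fly as able to break down both cAMP and cGMP, had 2 probe sets that were both called higher. The brighter, 146438_at, gave 174.9, 182.2, 174.5, 193.7 and 184.3 in tubule arrays 2 to 6, against 51.2, 65.1, 28.7, 59.4 and 64.5 in fly arrays 2 to 6. The tubule signals were close together, and the spread of the ratios came from the fly arrays, of which array 4 was the lowest. The mean was 182 ± 7.89 in tubule and 53.8 ± 15.1 in whole fly (SD, n = 5 each). Enrichment was 3.68 ± 1.37, and the log2 fold change was 1.82 (SE 0.19, limma adjusted p = 9.4e-05).

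The dimmer probe set of Pde11, 146439_at, gave 13.7, 5.2, 2.9, 21.5 and 15.5 in tubule arrays 2 to 6 against 11.4, 1.9, 1.7, 1.7 and 5.4 in fly arrays 2 to 6. Tubule was higher in all 5 pairs, but the groups overlapped. The log2 fold change of 1.53 (SE 0.53, limma adjusted p = 0.0401) kept its call without pair 2 (1.85, adjusted p = 0.0319) and lost it without any other pair. Without pair 3, 4, 5 or 6 it was 1.55, 1.72, 1.0 or 1.54, with adjusted p from 0.0528 to 0.116. Without the pair as a block its adjusted p was 0.0774, with RpL32 held constant 0.10, and in pairs 4 and 6 alone 0.270.

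Pde6, in the fly a cGMP-specific phosphodiesterase found in the tubule's apical membrane, had 1 probe set. It gave 33.2, 46.7, 54.8, 49 and 31 in tubule arrays 2 to 6, against 10.4, 14.5, 28.1, 10.3 and 14.4 in fly arrays 2 to 6. The lowest tubule signal stood just above the highest fly signal, which was that of fly array 4 and lay apart from the other fly arrays. The mean was 42.9 ± 10.4 in tubule and 15.5 ± 7.31 in whole fly (SD, n = 5 each), with an enrichment of 3.05 ± 1.12 and a log2 fold change of 1.54 (SE 0.28, limma adjusted p = 0.00187). All 5 fits that left out a pair kept the call, with log2 fold changes between 1.36 and 1.68. With pairs 4 and 6 alone it was 1.03 (adjusted p = 0.114), and with signals under 50 set to 50, which leaves 1 tubule signal above the floor, it was 0.026 (adjusted p = 0.603).

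Pde1c, a relative of the calcium and calmodulin dependent phosphodiesterases that act on both cAMP and cGMP, was the member with a probe set called lower. That probe set, 146254_at, gave 8.6, 8.5, 8.4, 10.1 and 7.6 in tubule arrays 2 to 6, against 14.9, 34.4, 19.9, 28.7 and 13.2 in fly arrays 2 to 6. The groups did not overlap, and the tubule signals varied less than the fly signals, at 8.64 ± 0.907 against 22.2 ± 9.09 (SD, n = 5 each). Enrichment was 0.435 ± 0.144, and the log2 fold change was -1.27 (SE 0.33, limma adjusted p = 0.0117). The call was lost with quantile normalization (-0.32, adjusted p = 0.437) and in pairs 4 and 6 alone (-1.02, adjusted p = 0.254). Of 9 neuron markers measured, 5 were lower in tubule and none higher, against 40.3 and 16.5 percent of all genes. Their sums were 89.3 to 145.6 in tubule and 220.8 to 307.6 in whole fly. Their median log2 fold change was -1.57, and for each other tissue's markers it was lower, from -5.22 to -2.53. Fly array 5 had the lowest neuron sum, 220.8, and a 146254_at signal of 28.7. The part of these tissues in the Pde1c result was not tested.

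No call was made for the other 3 probe sets of Pde1c. The probe set 146258_at lay at 8.1 to 10.2 in tubule and at 5.7 to 7.1 in whole fly, so that tubule was higher in all 5 pairs without overlap, with a log2 fold change of 0.49 (limma adjusted p = 0.247). Without the trend in limma's variances the adjusted p of this small difference was 0.0309, and with quantile normalization its log2 fold change was 1.33 (adjusted p = 0.00883). The methods' t-test also called it, at an adjusted p of 0.00284. The probe set 146259_at had a log2 fold change of -0.82 (adjusted p = 0.140), and 146255_at was scattered between 5.3 and 29.7 in tubule and between 3.8 and 27.5 in whole fly. By the exact permutation test, 146254_at and 146258_at differed in their tubule to fly ratio by -1.76 ± 0.62 on the log2 scale (SD over 5 pairs, exact p = 0.00794, adjusted p = 0.0291). All signals of Pde1c were under 50, where a signal need not follow its transcript, and no difference between transcripts is read from this.

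**Figure D2:**
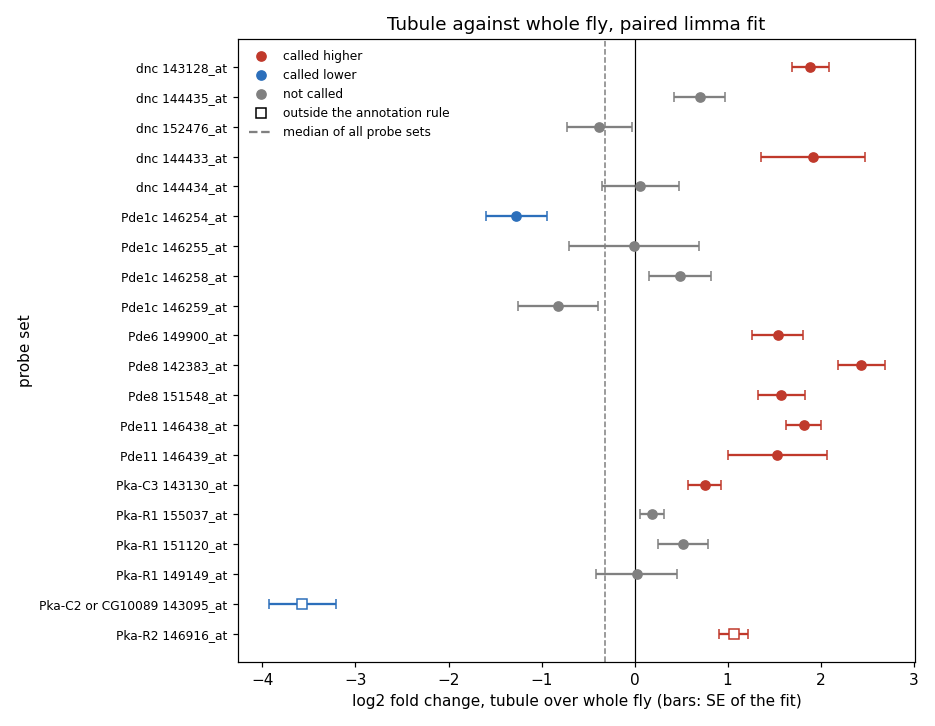
Log2 fold change of each probe set, tubule over whole fly, with the SE of the paired fit as bars, and the median of all 13966 probe sets as a dashed line at -0.32. Probe sets of Pde8, Pde11, Pde6, Pka-C3 and 2 of dnc were called higher (red), 1 of Pde1c was called lower (blue), and the open squares are the 2 probe sets that do not have a member as their only annotated gene.

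The phosphodiesterases were compared with each other by the ratio of 2 probe sets within an array, so that no scaling between arrays enters. Taking the probe set of the highest mean for each gene, that of Pde1c, 146254_at, differed from each of the other 4 on the deposited signals. As 146258_at of Pde1c went the other way, this holds for that dim probe set and not for the gene. The tubule to fly difference of dnc exceeded that of Pde1c by 3.16 ± 0.63 on the log2 scale (SD over 5 pairs). The differences of Pde1c from Pde6, Pde8 and Pde11 were -2.81 ± 0.87, -3.71 ± 0.84 and -3.09 ± 0.64. Each of the 4 had an exact p of 0.00794, the smallest possible with 5 arrays against 5, an adjusted p of 0.0218 over 11 comparisons, and the same direction in all 5 pairs. All signals of Pde1c were dim. With signals under 50 set to 50 the difference between Pde1c and Pde6 was -0.026 ± 0.059 (exact p = 1.0). That between dnc and Pde1c was then 1.51 ± 0.099. Those of Pde1c from Pde8 and Pde11 were -1.19 ± 0.42 and -1.66 ± 0.15 (adjusted p = 0.0146 for each of these 3). The floor makes Pde1c constant, so these values hold only the change of the other gene and say nothing of Pde1c.

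Among dnc, Pde6, Pde8 and Pde11 no difference in the tubule to fly ratio passed on the deposited signals. The largest was between Pde6 and Pde8, at -0.90 ± 1.02 (adjusted p = 0.112), followed by Pde8 and Pde11 at 0.62 ± 0.63 (adjusted p = 0.112) and dnc and Pde8 at -0.55 ± 0.57 (adjusted p = 0.142). The spread over pairs was as large as these differences, and for dnc and Pde11 the difference was 0.07 ± 0.81 (adjusted p = 0.849). This depended on how low signals were treated, since the comparisons of Pde6 with the other 3 genes passed in 2 alternatives. Pde6 had the lowest mean signals among these genes, and both alternatives shrink the ratio of a dim probe set most. Their passes therefore cannot show that Pde6 itself differed. With 16 added to every signal, Pde6 had the smaller tubule to fly difference in all 5 pairs against dnc (adjusted p = 0.0374), Pde8 (adjusted p = 0.0175) and Pde11 (adjusted p = 0.0291). With signals under 50 set to 50 the same 3 comparisons passed (adjusted p = 0.0146 each), with 9 of the 10 Pde6 signals at that floor. These values hold almost only the change of the other gene. No alternative separated dnc, Pde8 and Pde11 from each other. With 4 arrays a group the smallest exact p is 0.0286, and none of the 11 comparisons passed when a pair was left out (adjusted p of at least 0.0629).

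**Figure D3:**
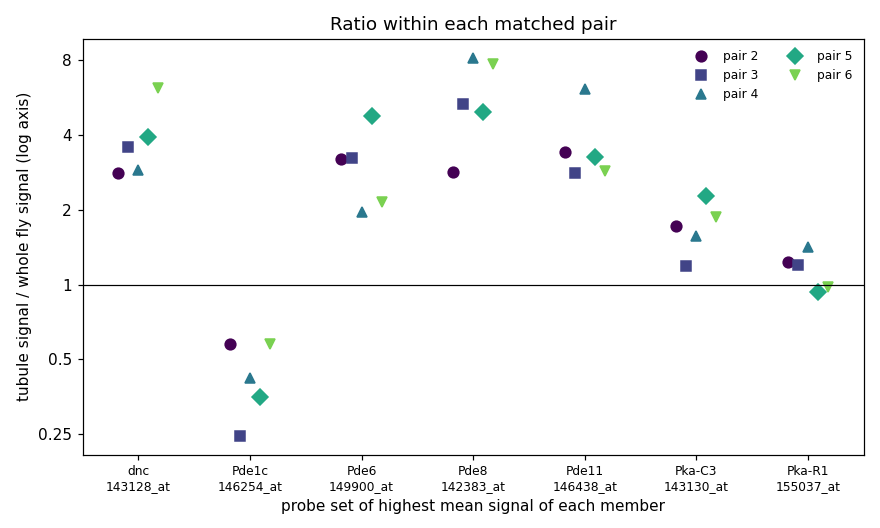
Ratio of tubule to whole fly signal (log axis) within each of the 5 matched pairs, for the probe set of the highest mean signal of each member. All 5 ratios lie above 1 for dnc, Pde6, Pde8, Pde11 and Pka-C3 and below 1 for Pde1c, while those of Pka-R1 lie on both sides of 1, from 0.935 to 1.42.

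Of the PKA subunits, the catalytic subunit Pka-C3 was called higher. It gave 75.4, 59, 106.1, 94.4 and 107 in tubule arrays 2 to 6, against 43.7, 49.6, 67.8, 41.5 and 57.4 in fly arrays 2 to 6. Tubule was higher in all 5 pairs, although tubule array 3 lay below fly array 4. The mean was 88.4 ± 20.8 in tubule and 52.0 ± 10.8 in whole fly (SD, n = 5 each), with an enrichment of 1.72 ± 0.398 and a log2 fold change of 0.75 (SE 0.18, limma adjusted p = 0.00721). The call was lost when RpL32 was held constant in every array (0.42, adjusted p = 0.0919) and with pairs 4 and 6 alone (0.77, adjusted p = 0.0692).

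The regulatory subunit Pka-R1 had 3 probe sets, and none was called. The brightest, 155037_at, gave 155.4, 194.5, 230, 163.4 and 172.4 in tubule arrays 2 to 6, against 126.6, 162.3, 162.4, 174.8 and 177.2 in fly arrays 2 to 6. The groups overlapped over most of their range, and 3 of 5 pairs were higher in tubule. Enrichment was 1.15 ± 0.198, and the log2 fold change was 0.18 (SE 0.13, limma adjusted p = 0.258), with the sign turned when RpL32 was held constant (-0.15, adjusted p = 0.365). The probe set 151120_at was higher in all 5 pairs by ratios of 1.02 to 1.98 and did not pass (log2 fold change 0.52, adjusted p = 0.133). The third, 149149_at, averaged 15.0 ± 9.29 in tubule and 15.1 ± 8.34 in whole fly (SD, n = 5 each), with tubule array 2 at 31.6 apart from the other tubule arrays at 9.5 to 11.6. With quantile normalization 155037_at and 151120_at were called higher, at 0.37 (adjusted p = 0.0342) and 1.34 (adjusted p = 0.00312).

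The tubule to fly difference of Pka-C3 exceeded that of Pka-R1 by 0.57 ± 0.54 on the log2 scale (SD over 5 pairs). This did not pass adjustment over the 11 comparisons (exact p = 0.0476, adjusted p = 0.105). A call for the catalytic and none for the regulatory subunit does not by itself show that the 2 subunits differed.

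For the other PKA genes the annotation gave no probe set of their own. The probe set 143095_at is annotated to both Pka-C2, a catalytic subunit, and CG10089, so that its signal cannot be given to 1 of the 2 genes. It gave 3.8, 4.1, 5.8, 10.9 and 4.4 in tubule arrays 2 to 6, against 57.3, 55, 105.7, 48.7 and 64 in fly arrays 2 to 6. Every fly array was above every tubule array, at a mean of 5.80 ± 2.95 in tubule and 66.1 ± 22.8 in whole fly (SD, n = 5 each), with an enrichment of 0.0977 ± 0.0709 and a log2 fold change of -3.57 (SE 0.36, limma adjusted p = 8.2e-05). The highest tubule signal was in array 5 and the highest fly signal in array 4. The summed signal of 7 testis markers had its highest tubule value, 977, in tubule array 5 and its highest fly value, 7486, in fly array 4. This rank was not particular to testis. Fly array 4 was also the highest fly array for the summed neuron (307.6), photoreceptor (3919) and muscle (5307) markers. Tubule array 5 was also the highest tubule array for ovary and egg markers (5017). The other arrays did not keep the same order, as tubule array 2 had a testis sum of 649.5 with the lowest tubule signal of 143095_at, 3.8. Over the groups the testis sum lay at 137.7 to 977 in tubule and 3725 to 7486 in whole fly. Of the 7 testis markers 6 were lower in tubule and none higher, against 40.3 and 16.5 percent of all genes. Their part in the result was not tested.

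The probe set 146916_at has no gene in the platform annotation, and the study named it CG15862, a synonym of the regulatory subunit Pka-R2. It gave 146, 182.8, 158.4, 243.1 and 238.4 in tubule arrays 2 to 6, against 89.4, 87, 95.8, 90.4 and 91.2 in fly arrays 2 to 6. The fly arrays were close together and the tubule arrays spread above them, at 194 ± 44.9 in tubule against 90.8 ± 3.23 in whole fly (SD, n = 5 each), an enrichment of 2.14 ± 0.505. The name comes from a list that the study chose for being higher in tubule on these arrays. The values are therefore a description, and no test is read from them. Pka-C1, the main catalytic subunit of the fly, was not analysed here.

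A further phosphodiesterase of the array, Pde9, is in mammals specific for cGMP, and was looked up after the annotation was seen. Its brightest probe set gave 47.5, 32.1, 39.3, 49.7 and 33.6 in tubule arrays 2 to 6, against 32.5, 31.9, 19.4, 19.8 and 19 in fly arrays 2 to 6. Tubule was higher in all 5 pairs, by a ratio of 1.01 in pair 3 and of 2.51 in pair 5. The log2 fold change of 0.75 (SE 0.26, limma adjusted p = 0.0382) passed in 1 of the 5 fits that left out a pair, that without pair 3 (0.93, adjusted p = 0.0251), and missed in the others (adjusted p from 0.0640 to 0.122). The other 3 probe sets of Pde9 were not called (adjusted p from 0.475 to 0.779).

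The genes that act before and beside these enzymes were counted by the probe set of each gene with the highest mean, and on that count 16.5 percent of all genes were higher and 40.3 percent lower. The cAMP-producing side, cyclases with the G protein alpha subunit that activates them and Nf1, had 13 of 15 genes measured, of which 5 were higher, 4 lower and 4 not called (median log2 fold change 0.32, against -0.44 over all genes). The tubule mean was under 50 for 9 of the 13, and with signals under 50 set to 50, 3 were higher and 1 lower. In pairs 4 and 6 alone 3 were higher and 1 lower as well. ACXD, a cyclase of the ACX family that is otherwise best known from the male germ line, gave 79.5, 106.4, 70.5, 115.1 and 112.3 in tubule arrays 2 to 6, against 22.9, 22.7, 21.8, 12.2 and 4.4 in fly arrays 2 to 6. Its log2 fold change was 2.73 (limma adjusted p = 9.6e-04), and its enrichment of 9.27 ± 9.42 included a ratio of 25.5 in pair 6, where the fly signal was lowest. The cyclase Ac78C averaged 44.2 ± 12.2 in tubule and 6.74 ± 1.86 in whole fly (SD, n = 5 each), an enrichment of 7.24 ± 3.46 (log2 fold change 2.71, limma adjusted p = 3.2e-04). The cyclase ACXC was lower, at 5.18 ± 2.93 in tubule and 23.5 ± 8.18 in whole fly (log2 fold change -2.51, limma adjusted p = 0.00775). The calcium-responsive cyclase rutabaga (rut), singled out after its values were seen, was counted as lower from a probe set with the suffix of a gene family, whose signal may not be that of rut alone (log2 fold change -0.39, adjusted p = 0.00391), while its other probe set was not called (0.43, adjusted p = 0.0817).

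Of the 3 receptors listed for diuretic peptides that raise cAMP, all were measured, 2 were higher and 1 was not called (median log2 fold change 2.69). Dh31-R, the receptor of the calcitonin-like peptide DH31, averaged 633 ± 107 in tubule and 38.6 ± 7.74 in whole fly (SD, n = 5 each), an enrichment of 17.0 ± 4.81 (log2 fold change 4.04, limma adjusted p = 6.6e-07). Dh44-R2, a receptor of the corticotropin-releasing factor-like peptide DH44, averaged 203 ± 37.2 in tubule and 31.6 ± 5.94 in whole fly, an enrichment of 6.70 ± 2.21. The other DH44 receptor, Dh44-R1, was dim in both tissues, at 4.28 in tubule and 3.60 in whole fly on average, and was not called.

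Of the genes that anchor PKA or respond to cAMP, 8 of 9 were measured, with 2 higher, 3 lower and 3 not called (median log2 fold change -0.0026). The tubule mean was under 50 for 4 of the 8, and with signals under 50 set to 50, 1 was higher and 2 lower. In pairs 4 and 6 alone none was called higher and 2 were called lower. The A-kinase anchor protein Akap200 gave 486.4, 475.6, 363.7, 412.6 and 331.6 in tubule arrays 2 to 6, against 1229.3, 1144.1, 1109.7, 1277.9 and 1180.8 in fly arrays 2 to 6. Its enrichment was 0.349 ± 0.0557, with the groups far apart (log2 fold change -1.54, limma adjusted p = 1.2e-05). The anchor protein nvy was higher, at 27.0 ± 8.29 in tubule and 8.38 ± 3.18 in whole fly (log2 fold change 1.74, adjusted p = 0.00642). CG12069, a kinase related to the PKA catalytic subunits, was the most strongly lower of the list, at 2.26 ± 1.16 in tubule and 34.2 ± 9.14 in whole fly (log2 fold change -4.09, adjusted p = 1.6e-04).

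On the cGMP side, 8 of 10 genes were measured, with 1 higher, 3 lower and 4 not called (median log2 fold change -0.28). Gyc76C and Gycbeta100B had no single-gene probe set here. The study reported Gyc76C as enriched in tubule and Gycbeta100B as not enriched. The tubule mean was under 50 for 6 of the 8 measured, and with signals under 50 set to 50, 1 was higher and 1 lower. The gene called higher was Pkg21D, 1 of the fly's cGMP-dependent protein kinases, with an enrichment of 15.7 ± 5.09 (448 ± 43.9 in tubule and 30.4 ± 7.84 in whole fly, SD, n = 5 each, log2 fold change 3.92). The other cGMP-dependent protein kinase, foraging (for), named after its values were seen, was lower at 91.4 ± 4.95 in tubule against 347 ± 36.5 in whole fly (log2 fold change -1.92, limma adjusted p = 4.2e-06). The soluble guanylate cyclase subunit Gycalpha99B was lower, at 6.02 ± 1.11 in tubule and 45.8 ± 12.1 in whole fly (log2 fold change -2.89, limma adjusted p = 2.0e-04). Nitric oxide synthase (Nos), whose product activates that cyclase, was lower too and had a log2 fold change of -2.91 (adjusted p = 5.8e-04), at 1.28 ± 0.327 in tubule against 9.78 ± 3.13 in whole fly.

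**Figure D4:**
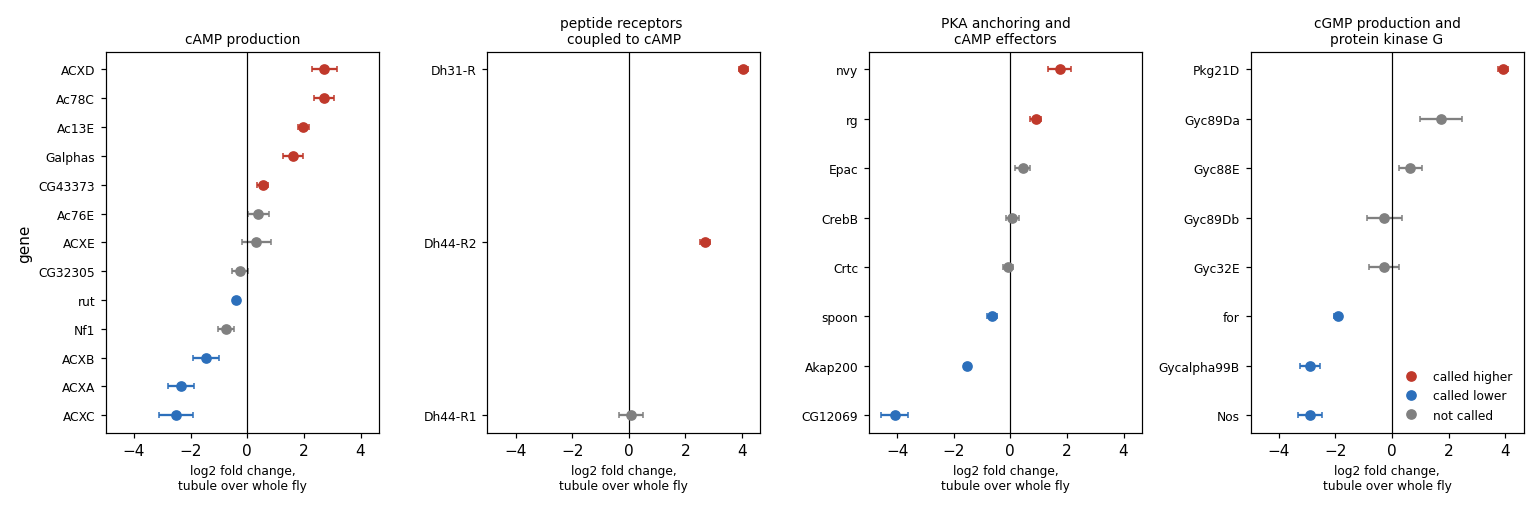
Log2 fold change, tubule over whole fly, of the genes measured on 4 lists of cAMP and cGMP signalling, with the SE of the paired fit as bars. Dh31-R at 4.04 and Pkg21D at 3.92 lie furthest right, and CG12069 at -4.09 lies furthest left.

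The probe sets whose log2 signal ran most closely with a member were found over the 10 arrays, by Pearson correlation among 5428 probe sets with 1 gene and a mean of at least 50. The points fall into the 2 tissues, so the correlations mainly describe the tissue difference, and they are given without a test. For Pde8 the nearest were scu at 0.995, bc10 at 0.993 and CG6656 at 0.992. Within the 5 tubule arrays alone these stood at 0.941, 0.930 and 0.980, and within the fly arrays at 0.974, 0.964 and 0.445. For Pka-C3 the nearest were Vps13 at 0.945, CG9449 at 0.943 and Flo2 at 0.937.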

How the data were processed

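The deposited signal intensities were made by the authors with MAS 5.0: perfect match minus mismatch values were condensed into 1 signal per probe set after background correction, with linear scaling of the 5 tubule and 5 whole fly arrays. The values hold no detection calls, and were not normalized further. After 44 controls were left out, limma 3.58.1 (R 4.3.3, lmFit, eBayes with trend) was run on the log2 intensities of 13966 probe sets. The pair was the block, Benjamini-Hochberg adjustment covered all probe sets, and calls were made at an adjusted p under 0.05. The fit was tested on simulated data. Pairs rest on the study's statement that they share a culture, and own-pair deviations correlated at -0.089 to 0.091 over 6125 probe sets with a mean of at least 50. Ratios of 2 probe sets were tested exactly over arrays, without the pairing, with scipy 1.17.1. The annotation names 1 gene for 12443 probe sets, several for 327 and none for 1196, and symbols were updated through RefSeq. All member probe sets, up to 3 called genes per list and the 3 closest correlates of Pde8 and Pka-C3 are named. The members and lists were chosen with earlier results of these data known. The number of arrays limits the precision.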

Additional observations from a re-analysis of the deposited data

Results flagged for a closer look

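In 4 of 42 groups of 5 arrays, 1 array stood apart from the other 4 by Dixon's test, which chance does in about 1 in 20 groups. Pde6 was at 28.1 in fly array 4, against 10.3 to 14.5 in the other fly arrays. The Pka-R1 probe set 149149_at was at 31.6 in tubule array 2, against 9.5 to 11.6 in the other tubule arrays. The probe set shared by Pka-C2 and CG10089, 143095_at, was at 10.9 in tubule array 5, against 3.8 to 5.8 in the other tubule arrays, and at 105.7 in fly array 4, against 48.7 to 64 in the other fly arrays. These 2 arrays were also the highest of their groups for the summed testis markers. Fly array 4 was the highest fly array for neuron, photoreceptor and muscle markers too, and tubule array 5 the highest tubule array for ovary and egg markers. The other arrays did not keep the same order, and a link was not tested.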

How the results depend on the processing

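Signals under 50 limit most members. Over all probe sets 7418 were called, 4506 among those with a mean of at least 50, 4137 with signals under 50 set to 50, and 6419 to 7099 without 1 pair. Calls higher among members numbered 8, against 4 under the mean limit, with the floor and in pairs 4 and 6 alone (added after the data were seen), and 6 to 8 without 1 pair. The 1 lower call became 0 under the mean limit, the floor, quantile normalization and pairs 4 and 6. It also became 0 with the unpaired t-test on linear signals at 0.01 unadjusted, and 2 with that test after Benjamini-Hochberg. The lower call stayed 1 in each fit without 1 pair. Calls on the 4 lists numbered 20, against 11 under the mean limit, 11 with the floor, 12 in pairs 4 and 6 and 18 to 20 without 1 pair. Of 11 comparisons between members 4 passed, 7 with 16 added to every signal, 6 with the floor (Pde1c against Pde6 lost, 3 with Pde6 gained), 2 with the probe set of lowest mean and 0 in each fit without 1 pair (4 to 5 at an unadjusted p under 0.05). The floor gave no value for probe sets wholly under 50, and in the comparisons with Pde1c it left only the change of the other gene. In those gained with Pde6 it left almost only that change, and adding 16 also shrank the ratio of Pde6 most. Without the replicate block 7738 probe sets and 7 members higher were called, and Pde11 146439_at was the member lost.

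Scaling moved the median of all probe sets: it was -0.32 as deposited, 0.18 with quantile normalization and -0.66 with RpL32 constant, and 31.6, 54.6 and 18.4 percent of calls were higher in these. With quantile normalization 12 members were called higher, and with RpL32 constant 6. Signs turned only in members that were not called: dnc 152476_at was 0.43 with quantile normalization, dnc 144434_at -0.28 with RpL32 constant and -0.22 to 0.22 without 1 pair, Pka-R1 155037_at -0.15 with RpL32 constant, Pde1c 146255_at 0.85 with quantile normalization, 0.035 on the linear scale of the t-test and -0.75 to 0.59 without 1 pair, and Pka-R1 149149_at -0.32 with RpL32 constant, -0.0038 with 16 added and in the t-test, and -0.23 to 0.41 without 1 pair. The causes were not tested. With the floor, Pde6 was 0.026 (adjusted p = 0.603) and Pde8 151548_at 0.077 (adjusted p = 0.148), both no longer called.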
